A study of Bos taurus with 10 samples.

Results

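Scavenger receptors and macrophage genes were followed in bovine mammary tissue from udder glands that neighbored an infected gland. The genes were MSR1, OLR1, CD36, SCARB1, CD163, MRC1, CD68, AIF1, FCGR2B and MARCO. Every probe set whose only gene symbol was one of these names was taken. This gave 9 of the 24016 probe sets of the array and 7 of the 10 genes, where the array names 9155 genes in all. MSR1 had 3 probe sets and the other 6 genes had 1 each. CD163 and MRC1, which are receptors of alternatively activated macrophages, and MARCO, a further class A scavenger receptor, had 0 probe sets under this rule and were not analysed here. The genes were chosen by their differences between neighboring and healthy tissue in these same arrays. Their differences and calls are therefore a description and carry no test.

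Tissue came from 10 first-lactation German Holstein Frisian cows in mid lactation that were healthy when enrolled. Oestrus was synchronized by Cloprostenol, the udder was milked out with oxytocin, and each cow gave 1 array. In the 5 neighboring samples another gland of the same udder had received 500 CFU of the mastitis isolate E. coli 1303 in 2 ml of saline, and tissue was taken 24 h later. The paper reports acute mastitis and fever in all inoculated cows, with a fall in blood leukocytes. Neighboring samples 1, 2, 3 and 5 mixed a gland infused with sterile saline and an untreated gland, whereas neighboring 4 was a single untreated gland. By the paper, these glands were picked for the lowest somatic cell counts in milk. The 5 control samples came from healthy cows that received no bacteria and no saline, so infection elsewhere in the udder and the saline infusion of a mixed-in gland cannot be told apart in the pooled samples. The study's sample list gives a single untreated gland also for controls 3 and 5. The fit used 8 arrays. Neighboring 5 was left out as a biological and control 3 as a technical outlier, a choice taken over from the published methods. Both are shown for every member.

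Scavenger receptors are membrane proteins that bind modified lipoproteins, bacterial surface molecules and debris of dying cells. Macrophages carry several of them and use them to take up particles, and some are also found on endothelial and epithelial cells. Macrophages are resident in the stroma and along the epithelium of the mammary gland and are among the first cells to meet bacteria there. In whole tissue, fewer cells of a type and less RNA per cell cannot be told apart.

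Array medians lay between 6.25 and 6.27 on the log2 scale. The milk protein genes CSN2, CSN3 and LALBA read between 14.20 and 14.86 on every array and none passed the test, so every sample carried the transcripts of lactating epithelium. Spiked-in hybridization controls, averaged over 18 probe sets, read 10.20 to 10.43 on the neighboring arrays of the fit and 10.42 to 10.84 on the control arrays. They read 10.65 on neighboring 5 and 10.64 on control 3. The values with these controls as a covariate follow the member genes.

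In neighboring tissue the brightest probe set of the class A receptor MSR1 was lower and the lectin-like receptor OLR1 higher. Each differed by more than 2-fold on the 8 arrays of the fit. The middle MSR1 set differed by −0.54 ± 0.19, and the dimmest by −0.34 ± 0.11 in a fit with no filter on low values. All fitted OLR1 control values lay under 5.71, the mean below which probe sets were left out as low. CD36, AIF1 and FCGR2B were lower by less than 2-fold. On the 8 arrays the groups overlapped for FCGR2B, SCARB1, CD68 and the middle MSR1 set. Neighboring 5 lay at the level of the controls for OLR1, and control 3 lay below the other controls for AIF1. All values are log2 RMA values, and a difference is neighboring minus control.

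**Figure D1:**
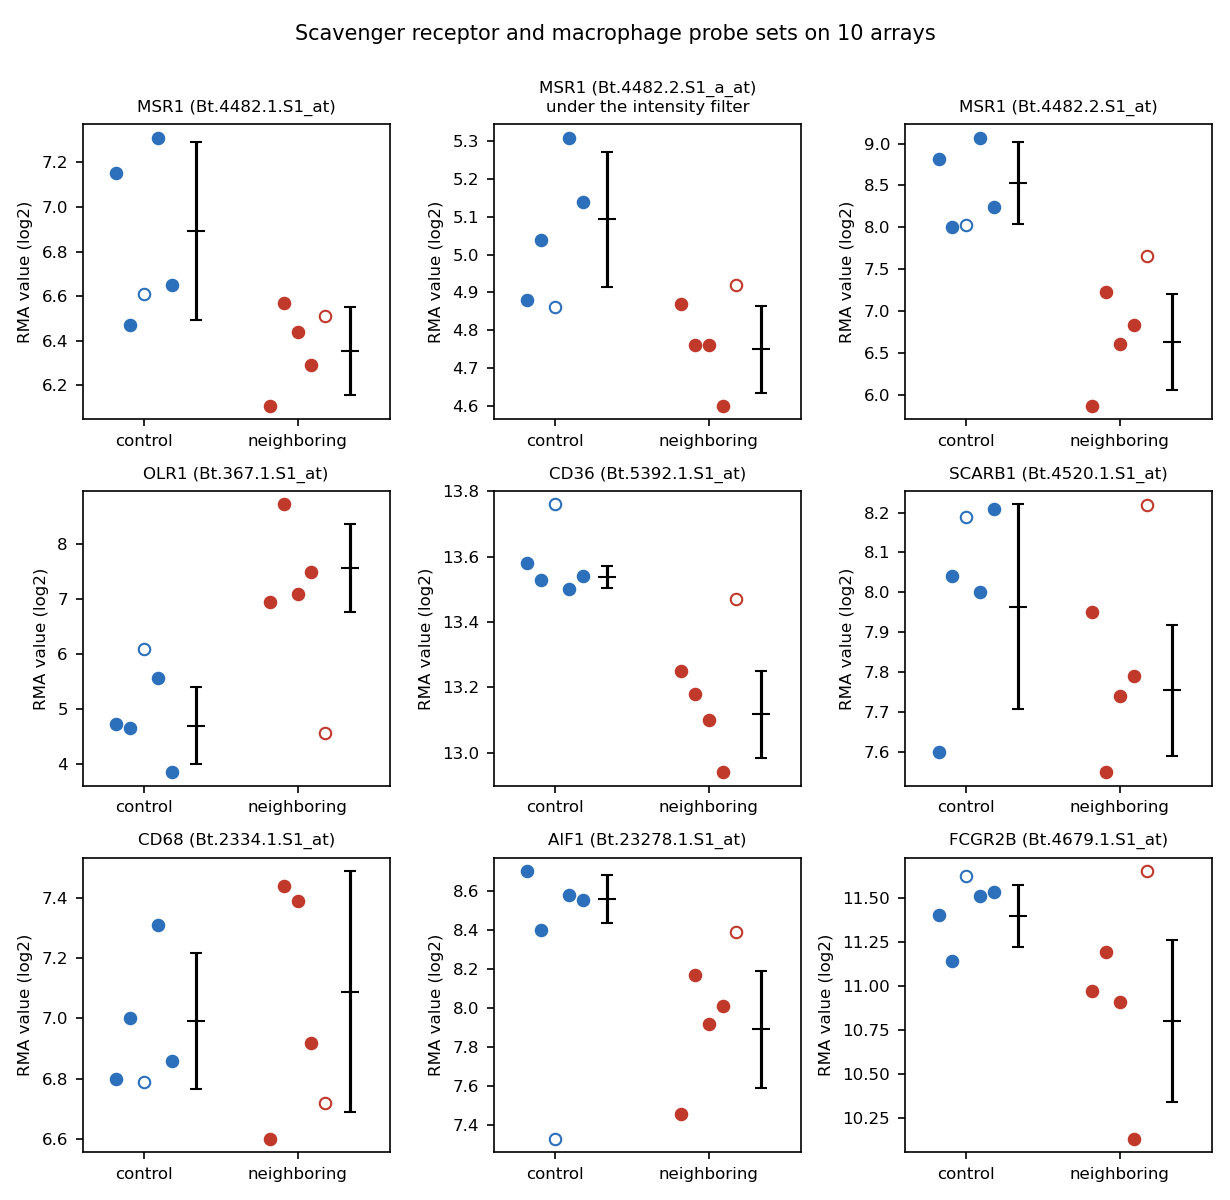
Log2 value of each of the 9 probe sets on each array. Filled points are the 8 arrays of the fit, open points are neighboring 5 and control 3, and bars are the mean ± SD over the 4 fitted arrays per group. The brightest MSR1 set and CD36 have no overlap between groups on any of the 10 arrays, and OLR1 has none once neighboring 5 is left out.

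MSR1, the macrophage scavenger receptor that takes up modified low-density lipoprotein and binds bacterial surface molecules, was read by 3 probe sets. The brightest, Bt.4482.2.S1_at, had the largest difference of the 3. On neighboring arrays 1 to 5 it read 5.87, 7.23, 6.6, 6.83 and 7.66. On control arrays 1 to 5 it read 8.81, 8.0, 8.03, 9.07 and 8.24. Every neighboring value lay below every control value on all 10 arrays, and neighboring 5 was the nearest to the controls. The mean was 6.63 ± 0.57 (SD, n = 4) in neighboring and 8.53 ± 0.49 in control tissue. The difference was −1.90 ± 0.30 (SE), which is 3.72-fold lower and place 65 by size among the 14409 probe sets tested. On all 10 arrays it was −1.59 ± 0.31, or 3.01-fold lower. Leaving out any 1 of the 8 arrays gave −2.10 to −1.64.

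The middle set, Bt.4482.1.S1_at, differed less. It read 6.11, 6.57, 6.44, 6.29 and 6.51 on neighboring arrays 1 to 5. It read 7.15, 6.47, 6.61, 7.31 and 6.65 on control arrays 1 to 5. Controls 1 and 4 stood above all other arrays and the groups overlapped. The difference was −0.54 ± 0.19 on the 8 arrays and −0.45 ± 0.17 on all 10. It missed the threshold of 0.05 at an adjusted p of 0.0512, and without control 2 it passed at 0.0216 with a difference of −0.68.

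The dimmest MSR1 set, Bt.4482.2.S1_a_at, lay under the filter on low values, with a mean of 4.91 over the 10 arrays. It read 4.87, 4.76, 4.76, 4.6 and 4.92 on neighboring arrays 1 to 5. It read 4.88, 5.04, 4.86, 5.31 and 5.14 on control arrays 1 to 5. The groups touched without overlapping on the 8 arrays and overlapped on all 10. In a fit with no filter the difference was −0.34 ± 0.11 on the 8 arrays and −0.27 ± 0.11 on all 10. All 3 sets of MSR1 were lower in neighboring tissue, by unequal amounts.

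The distance between the 2 brighter MSR1 sets also differed between groups. Within an array, the brightest set minus the middle set was −0.24, 0.66, 0.16, 0.54 and 1.15 on neighboring arrays 1 to 5. It was 1.66, 1.53, 1.42, 1.76 and 1.6 on control arrays 1 to 5. The distance was smaller on every neighboring array than on every control array, and the controls varied less among themselves, with a mean of 1.64 ± 0.10 (SD, n = 4) against 0.28 ± 0.41. Which stretch of the MSR1 transcript each set reads is not given in the sources used here. The sets nevertheless followed each other from cow to cow, with r = 0.89 over the 10 arrays and 0.83 for deviations from the group means, as a description over values that share their arrays.

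**Figure D2:**
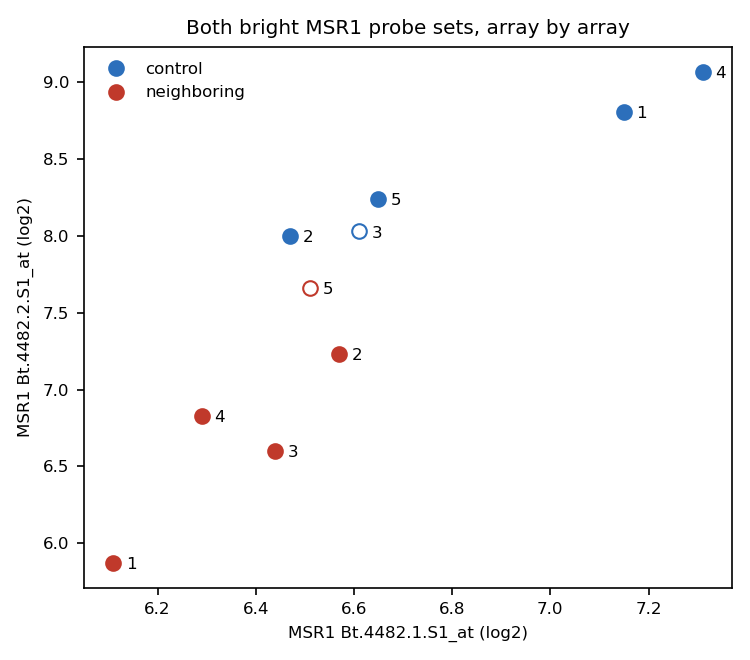
Log2 value of the brightest MSR1 probe set (vertical axis) against that of the middle set (horizontal axis), 1 point for each of the 10 arrays, numbered by replicate within its group. Neighboring arrays lie lower on the brightest set, also where the groups overlap on the middle set, and neighboring 5 is the closest to the controls.

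OLR1, the lectin-like receptor for oxidized low-density lipoprotein, known from endothelial cells and macrophages, was the one member called higher. Its probe set Bt.367.1.S1_at read 6.94, 8.72, 7.10, 7.49 and 4.56 on neighboring arrays 1 to 5. It read 4.73, 4.65, 6.09, 5.56 and 3.85 on control arrays 1 to 5. Neighboring 1 to 4 stood above all controls, while neighboring 5 was inside the control range. The mean was 7.56 ± 0.80 (SD, n = 4) in neighboring and 4.70 ± 0.70 in control tissue. The difference was 2.86 ± 0.41 (SE), which is 7.26-fold higher. All 4 fitted control values lay under 5.71, the mean below which probe sets were left out as low, so the set passed that filter through neighboring 1 to 4 and control 3. The fold is therefore one against a level as low as that of the sets left out. With all 10 arrays it was 1.98 ± 0.64, or 3.96-fold higher. Neighboring 5 lay −0.14 from the control mean of the fit and control 3 lay 1.39 above it. Leaving out any 1 of the 8 arrays gave 2.48 to 3.15.

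CD36, a class B scavenger receptor that takes up fatty acids and oxidized lipoproteins and is also part of the milk fat globule membrane, was lower by a small amount. Its probe set Bt.5392.1.S1_at read 13.25, 13.18, 13.10, 12.94 and 13.47 on neighboring arrays 1 to 5. It read 13.58, 13.53, 13.76, 13.50 and 13.54 on control arrays 1 to 5. All neighboring values lay below all control values on the 10 arrays, by a narrow margin for neighboring 5. The difference was −0.42 ± 0.10, which is 1.34-fold lower, and −0.39 ± 0.11 on all 10 arrays. The set ranked within the top 1% of the array, at a percentile of at least 99.9 in the controls, where log2 differences of array signals are compressed.

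SCARB1, the class B receptor for high-density lipoprotein, did not separate the groups. Its probe set Bt.4520.1.S1_at read 7.95, 7.55, 7.74, 7.79 and 8.22 on neighboring arrays 1 to 5. It read 7.60, 8.04, 8.19, 8.0 and 8.21 on control arrays 1 to 5. The lowest and the highest of the 10 values were both neighboring arrays. The difference was −0.21 ± 0.14 on the 8 arrays and −0.16 ± 0.15 on all 10.

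Among the general macrophage genes, CD68, a glycoprotein of macrophage lysosomes, was the closest to no difference. Its probe set Bt.2334.1.S1_at read 6.6, 7.44, 7.39, 6.92 and 6.72 on neighboring arrays 1 to 5. It read 6.8, 7.0, 6.79, 7.31 and 6.86 on control arrays 1 to 5. The control values lay within the range of the neighboring values. The difference was 0.10 ± 0.19 on the 8 arrays and 0.06 ± 0.18 on all 10, and it changed sign to −0.02 at the lower end when single arrays were left out, against 0.26 at the upper end.

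AIF1, a calcium-binding protein of macrophages, was lower on the 8 arrays, and the size depended on control 3. Its probe set Bt.23278.1.S1_at read 7.46, 8.17, 7.92, 8.01 and 8.39 on neighboring arrays 1 to 5. It read 8.70, 8.40, 7.33, 8.58 and 8.55 on control arrays 1 to 5. Controls 1, 2, 4 and 5 lay above the 4 fitted neighboring arrays, and control 3 was the lowest of all 10. The difference was −0.67 ± 0.15 on the 8 arrays, or 1.59-fold lower. It was −0.42 ± 0.26 with control 3 put back and −0.32 ± 0.25 on all 10 arrays.

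FCGR2B, the inhibitory receptor for immunoglobulin G on macrophages and B cells, had overlapping groups. Its probe set Bt.4679.1.S1_at read 10.97, 11.19, 10.91, 10.13 and 11.65 on neighboring arrays 1 to 5. It read 11.40, 11.14, 11.62, 11.51 and 11.53 on control arrays 1 to 5. Neighboring 4, the single-gland sample, was the lowest value and neighboring 5 the highest. The difference was −0.59 ± 0.20, or 1.51-fold lower, and −0.47 ± 0.22 on all 10 arrays. Its call at an adjusted p under 0.05 was lost without neighboring 1, 3 or 4 and without control 1, 4 or 5, with an adjusted p up to 0.109 and differences between −0.72 and −0.37 over all 8 fits that left out 1 array. It was lost too with no filter on low values, at an adjusted p of 0.0569. Fc receptors resemble each other in sequence, and whether this set also reads a relative was not tested.

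**Figure D3:**
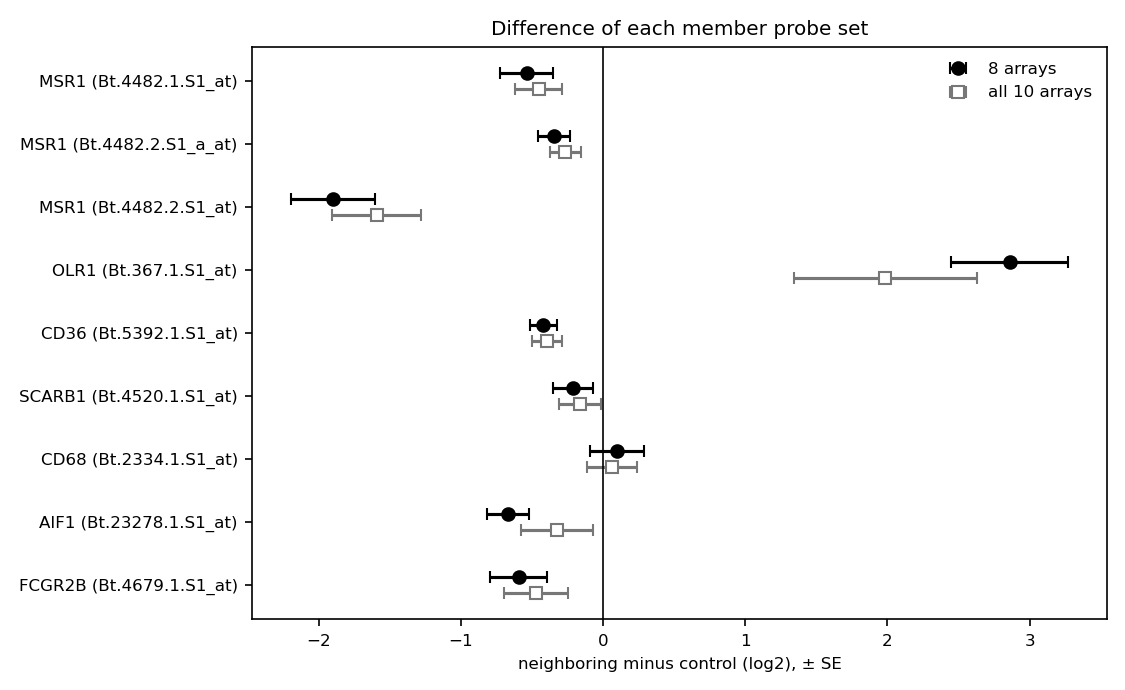
Difference of each of the 9 member probe sets, neighboring minus control on the log2 scale with its SE, in the fit on 8 arrays (filled) and on all 10 (open). The dimmest MSR1 set is from the fits with no filter. OLR1 moves from 2.86 to 1.98 and AIF1 from −0.67 to −0.32 when both left-out arrays are put back, while CD36 moves from −0.42 to −0.39.

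Of the 9 probe sets, 8 passed the filter on low values, OLR1 among them through its neighboring arrays and control 3. The stricter rule asked for an adjusted p under 0.01 together with more than a 2-fold difference. By it 2 of these 8 were called, OLR1 higher and the brightest MSR1 set lower. Of all probe sets 2.76% were called, 1.71% higher and 1.05% lower. At an adjusted p under 0.05, 5 of 8 were called where 29.7% of all were. OLR1 was higher (17.7% of all were), and the brightest MSR1 set, CD36, AIF1 and FCGR2B were lower (12% of all were). On all 10 arrays 0 of 8 were called by the stricter rule, against 0.104% of all. At 0.05, the brightest MSR1 set and CD36 were called, 2 of 8 against 12.5% of all. Both were among the lower (5.37% of all), and 0 were among the higher (7.16% of all). The groups did not overlap for 5 of the 9 probe sets on the 8 arrays, where 25.4% of all 24016 did not, and for 2 of 9 on the 10 arrays, where 5.89% did not. With neighboring 5 alone put back, OLR1 was at 2.26 ± 0.66, the brightest MSR1 set at −1.69 ± 0.33, CD36 at −0.35 ± 0.11 and AIF1 at −0.57 ± 0.16, and of the 8 only this MSR1 set passed an adjusted p of 0.05. Since the same contrast chose the genes, nothing is read from these counts.

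With the hybridization controls as a covariate, 0 of the 8 probe sets passed an adjusted p of 0.05. The brightest MSR1 set was then at −1.90 ± 0.53, OLR1 at 2.49 ± 0.72, CD36 at −0.45 ± 0.17, AIF1 at −0.47 ± 0.25 and FCGR2B at −0.84 ± 0.35. Directions were kept for these 5 and each standard error grew. Of the sets not called without the covariate, the middle MSR1 set was at −0.74 ± 0.33 and SCARB1 at −0.37 ± 0.24. CD68 changed sign to −0.22 ± 0.32. In that fit 251 of the 14409 probe sets passed, against 4283 without the covariate.

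Of the 36 pairs of member probe sets, the highest r over the 10 arrays, besides that of both brighter MSR1 sets, involved CD36. CD36 and FCGR2B had r = 0.86 over the 10 arrays and also 0.86 for deviations from group means. CD36 and the brightest MSR1 set had r = 0.72 over the 10 arrays and 0.13 for the deviations. CD36 and OLR1 had r = −0.72 and −0.41. The brightest MSR1 set and AIF1 had r = 0.67 over the 10 arrays and 0.71 for the deviations. These are descriptions over 10 arrays that all share their processing.

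In healthy tissue the probe sets stood at very different places on their array. These control values also entered the contrast by which the genes were chosen. Probe sets bind with different strength, so their values are placed on the array and not set against each other as amounts of RNA. CD36, with a control mean of 13.58 over the 5 cows, and FCGR2B, with 11.44, lay in the top percentiles (FCGR2B between 98.3 and 99.0). The brightest MSR1 set, with a mean of 8.43, lay between the percentiles 78.6 and 90.4, with a median of 82.5. On neighboring arrays it ranged from 43.6 to 73.9. AIF1 (mean 8.31) and SCARB1 (8.01) had median percentiles of 85.9 and 79.2, and CD68 (6.95) one of 60.9. OLR1, with a mean of 4.98 ± 0.87 (SD, n = 5), lay between the percentiles 13.5 and 46.5 in healthy tissue, with a median of 24.9. It reached 86.7 on the highest neighboring array.

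The gene lists that follow were tested in the same fit, and a gene rose or fell when its adjusted p was under 0.05 over all 14409 probe sets. Of the 7055 genes tested, 20.2% rose and 11.5% fell, with a median difference of 0.06. Of 16 other scavenger receptors, 8 were measured, of which 1 rose and 2 fell, with a median of −0.07. COLEC12, the collectin placenta 1 receptor of class A, fell by 1.00 ± 0.21 (adjusted p = 0.00625), and its second probe set fell by 0.74 in a fit with no filter. AGER, the receptor for advanced glycation end products, fell by 0.55 ± 0.09 (adjusted p = 0.00156), to a neighboring mean of 5.68 that is itself under the filter. AGER passed the filter through the control arrays and neighboring 5, so nothing is read from its place in the counts. CXCL16, a chemokine and receptor for oxidized lipoprotein, rose by 0.64 ± 0.15 (adjusted p = 0.00908), and its second set rose by 0.94. STAB1 (−0.05 ± 0.11), STAB2 (−0.09 ± 0.11), SCARA5 (0.25 ± 0.28), SCARB2 (−0.15 ± 0.11) and VLDLR (0.21 ± 0.30) did not pass. COLEC12 and AGER still fell on all 10 arrays, and CXCL16 did not pass (adjusted p = 0.0611).

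Other monocyte and macrophage genes showed no shared direction. Of 30 listed genes, 17 were measured, 1 rose and 3 fell, with a median of −0.03. CD14, the co-receptor for bacterial lipopolysaccharide, fell by 1.08 ± 0.27 (adjusted p = 0.0142), and its second set by 0.99 in a fit with no filter. FOLR2, a folate receptor of tissue macrophages, fell by 0.87 ± 0.14 (adjusted p = 0.00186), and IRF8, a transcription factor of monocytes and B cells, by 0.44 ± 0.11 (adjusted p = 0.0118), while the second IRF8 set, at −0.25, did not pass. LGALS3, a galactose-binding lectin of macrophages and epithelium, rose by 0.51 ± 0.15 (adjusted p = 0.0294), a call that was lost in 5 of the 8 fits without 1 array, namely without neighboring 1, 2 or 3 or control 1 or 5, with an adjusted p up to 0.0772. On all 10 arrays CD14 and IRF8 fell, and FOLR2 (adjusted p = 0.0613) and LGALS3 (adjusted p = 0.109) did not pass. CSF1R, the receptor for the macrophage growth factor, differed by −0.07 ± 0.15. The complement genes C1QA, C1QB and C1QC, made by macrophages, differed by 0.14 ± 0.19, 0.34 ± 0.19 and 0.19 ± 0.15. CTSS, the lysosomal cathepsin S, differed by 0.02 ± 0.17, TYROBP by −0.21 ± 0.22 and CYBB by −0.03 ± 0.20. None of these passed. GPNMB, a lysosomal membrane glycoprotein, differed by −1.01 ± 0.37 with an adjusted p of 0.0648. Its neighboring mean of 5.39 was under the filter, and the differences of its 3 probe sets lay 0.91 apart in a fit with no filter. The mean level of the 17 genes was 7.64 to 8.08 on neighboring arrays and 7.86 to 8.10 on control arrays, with 7.85 on neighboring 5 and 7.54 on control 3. Whether macrophage number takes part in the lower MSR1 was not tested. The brightest MSR1 set did not overlap between groups, and the middle MSR1 set and the mean level of these macrophage genes did. Of these genes 3 fell and 1 rose. MSR1 was chosen by its difference in these arrays, so nothing is read from setting it beside them.

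Fc receptors and their signalling partners gave 7 measured genes, of which 0 rose and 1 fell. FCGRT, the neonatal Fc receptor of epithelium and endothelium, fell by 0.69 ± 0.09 (adjusted p = 0.000876). FCER1G, the shared signalling chain, differed by 0.03 ± 0.14 and did not pass.

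Among 19 genes of lipoprotein uptake, sterol efflux and lipid storage, 16 were measured, 3 rose and 5 fell, with a median of −0.08. NPC1, which moves cholesterol out of lysosomes, rose by 1.44 ± 0.17 (adjusted p = 0.000436), and on all 10 arrays it still rose. PLTP, a phospholipid transfer protein, fell by 1.13 ± 0.34 (adjusted p = 0.0309), but lost its call without neighboring 1 or 4 or control 2 or 4, with an adjusted p up to 0.0815. FABP4 and FABP5, fatty acid carriers of fat cells, macrophages and epithelium, fell by 1.10 ± 0.15 and 1.04 ± 0.15. On all 10 arrays FABP4 did not pass (adjusted p = 0.128), nor did FABP5 (adjusted p = 0.0624). In a fit with no filter the second FABP4 set fell by 1.11 and the second FABP5 set by 1.80, so the size for FABP5 depended on the probe set. The remaining genes that passed, named here after their values were seen, were PPARG, which fell by 0.95 ± 0.17 and controls lipid storage genes, LPL, the lipoprotein lipase, which fell by 0.68 ± 0.20, and the nuclear receptors NR1H2 and RXRA, which rose by 0.31 ± 0.10 and 0.30 ± 0.09. On all 10 arrays PPARG and LPL still fell, at an adjusted p of 0.0300 and 0.0448, while NR1H2 (adjusted p = 0.185) and RXRA (adjusted p = 0.0608) did not pass. Whether single arrays decide these 4 calls was not tested.

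Of 15 genes of alternative macrophage activation, 7 were measured, 0 rose and 2 fell. ALOX15, an arachidonate lipoxygenase also found in other cells, fell by 2.93 ± 0.23, and TGFB1, a growth factor, by 0.91 ± 0.13. Both fell on all 10 arrays. Of 16 lysosomal genes 14 were measured, 3 rose and 1 fell. The protease genes CTSH and CTSZ rose by 0.64 ± 0.17 and 0.46 ± 0.14 and the hexosaminidase HEXA by 0.40 ± 0.09, while the protease CTSD fell by 0.37 ± 0.09. CTSZ lost its call without neighboring 1, 2 or 3 or control 1 or 2, with an adjusted p up to 0.0918. CTSH lost it without neighboring 3 or control 4 or 5, with an adjusted p up to 0.0530. The 3 that rose did not pass on all 10 arrays.

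**Figure D4:**
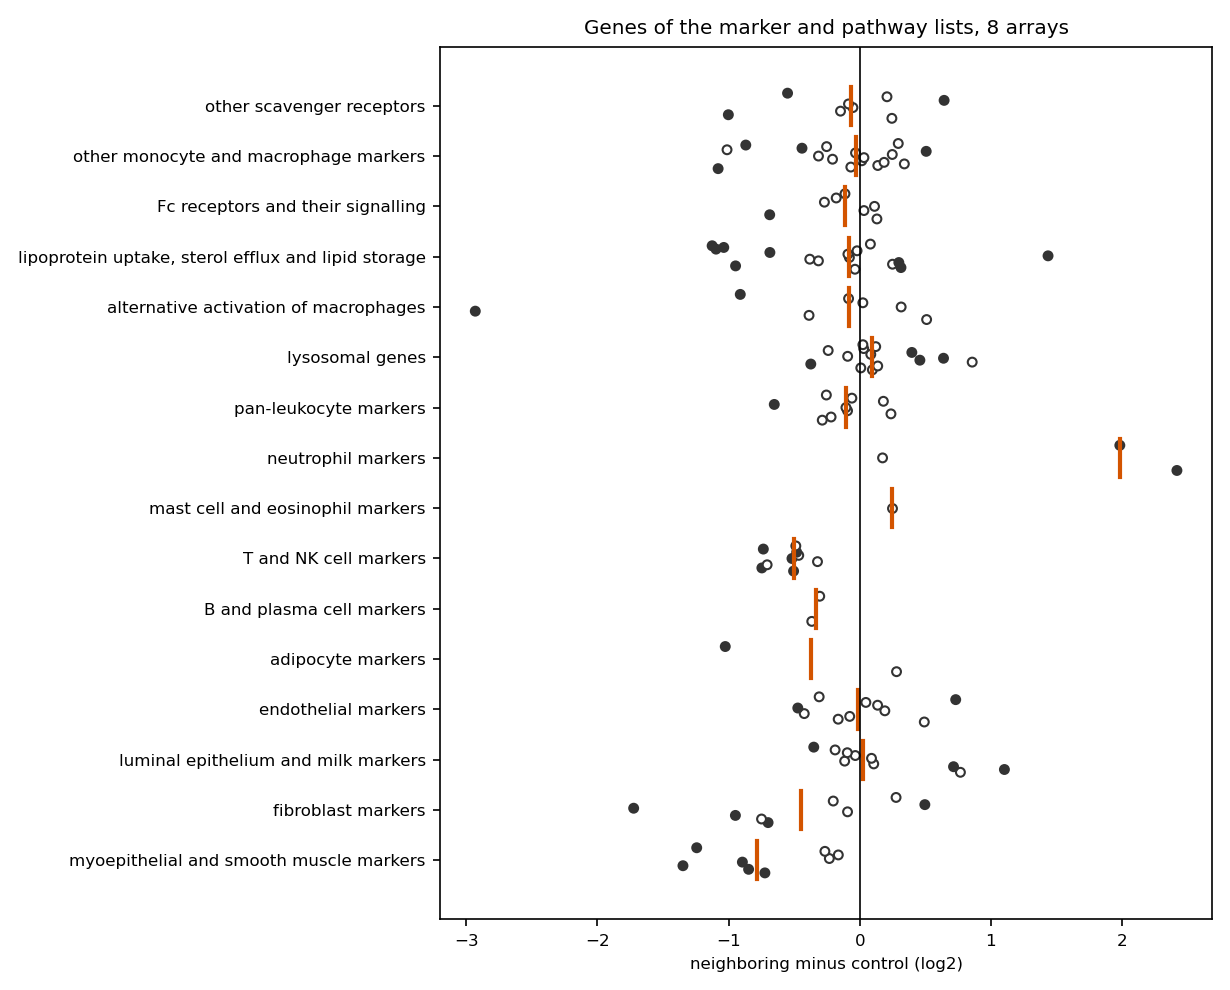
Difference of each measured gene of 16 gene lists, neighboring minus control on the log2 scale. Filled points passed an adjusted p under 0.05 and orange bars are list medians. Macrophage genes are centered near 0 (median −0.03) and T and NK cell genes lie below it (median −0.50).

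Other cell type markers moved in the same arrays, and their part in the member differences was not tested. Of 11 neutrophil markers, 3 were measured and 2 rose, S100A8 by 2.42 ± 0.27 and S100A12 by 1.98 ± 0.28. Their control means of 5.59 and 5.54 were under the filter, so both were measured only through the group where they are high, and nothing is read from their count. The mean level of the 3 was 7.01 to 8.10 on neighboring arrays and 5.69 to 6.06 on control arrays, with 7.73 on neighboring 5 and 5.21 on control 3. S100A9, the remaining marker, differed by 0.17 ± 0.10 and did not pass. The differences of its 2 probe sets lay 1.98 apart in a fit with no filter. Neighboring 5 lay within the neighboring range for this mean level and within the control range for OLR1. S100A8, S100A12 and OLR1 passed the filter through their high arrays, so nothing is read from where neighboring 5 stood. Of 9 measured T and NK cell markers 5 fell, CD3E by 0.75 ± 0.16, and their mean level was 6.35 to 6.87 against 6.98 to 7.30. It was 7.24 on neighboring 5, inside the control range, and 7.10 on control 3. Of these 9, 1 fell on all 10 arrays, and CD3E did not pass there (adjusted p = 0.109). Of 9 measured pan-leukocyte markers 1 fell, CD52 by 0.65 ± 0.19. It lost its call without neighboring 3 or control 1, 2 or 4, with an adjusted p up to 0.0717, and differed by −0.21 ± 0.30 on all 10 arrays. Their mean level was 7.5 to 7.88 against 7.48 to 8.0, with 8.12 on neighboring 5 and 7.71 on control 3.

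Among stromal and contractile markers more genes fell than rose. Of 8 measured fibroblast markers 3 fell and 1 rose, and LUM, a matrix proteoglycan, fell by 1.72 ± 0.17. PDGFRA, a growth factor receptor, was the 1 that rose, by 0.50 ± 0.13. Its other probe sets, at −0.28 and −0.15 in a fit with no filter, went the other way and did not pass. The mean level of the 8 markers was 8.31 to 8.95 on neighboring and 8.95 to 9.35 on control arrays, with 8.79 on neighboring 5 and 9.47 on control 3. Of 8 measured myoepithelial and smooth muscle markers 5 fell. CNN1, a smooth muscle calponin, fell by 1.35 ± 0.24 and OXTR, the oxytocin receptor, by 1.24 ± 0.10 to a mean of 5.37, also under the filter. OXTR passed the filter through the control arrays and neighboring 5, so nothing is read from its place in the counts. Of these 8 markers, 3 fell on all 10 arrays. Their mean level was 8.95 to 9.41 against 9.69 to 10.24, with 9.65 on neighboring 5 and 9.92 on control 3. Of the 10 measured endothelial markers 1 rose and 1 fell, and of the 10 luminal epithelial and milk markers 2 rose and 1 fell. B and plasma cell markers (2 measured), adipocyte markers (2 measured, 1 fell) and mast cell and eosinophil markers (1 measured) were too few to describe, and 0 dendritic cell markers were measured. Across all 17 lists, 14 of 130 measured genes rose and 31 fell.

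The genes whose pattern over the 10 arrays was most like that of the brightest MSR1 set were ING1, COL5A3, BEND5, COPZ2 and NR3C1. They were found by Pearson r among 9141 probe sets. ING1, which belongs to a histone-modifying complex, had r = 0.951, and for deviations from group means 0.944. COL5A3, a collagen chain, had 0.949 and 0.823, BEND5 0.942 and 0.794, and COPZ2, a vesicle coat protein, 0.938 and 0.784. NR3C1, the glucocorticoid receptor, had 0.937 and 0.864. The genes most like OLR1 were UTP3, DAG1, CLIC4, XRN2 and MED24, with r from 0.937 to 0.958. For deviations from group means they had r from 0.890 to 0.941. All deviations were taken over the 10 arrays, with neighboring 5 among them. On that array OLR1 and the 5 genes like it had their lowest neighboring value, and the brightest MSR1 set and the 5 like it their highest. How far neighboring 5 sets these r was not tested. UTP3 takes part in ribosome assembly, DAG1 encodes dystroglycan, CLIC4 an intracellular chloride channel, XRN2 an exoribonuclease and MED24 a subunit of the mediator complex. These are the highest of many values of r over few arrays that share their processing, given as a description with no test.

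**Figure D5:**
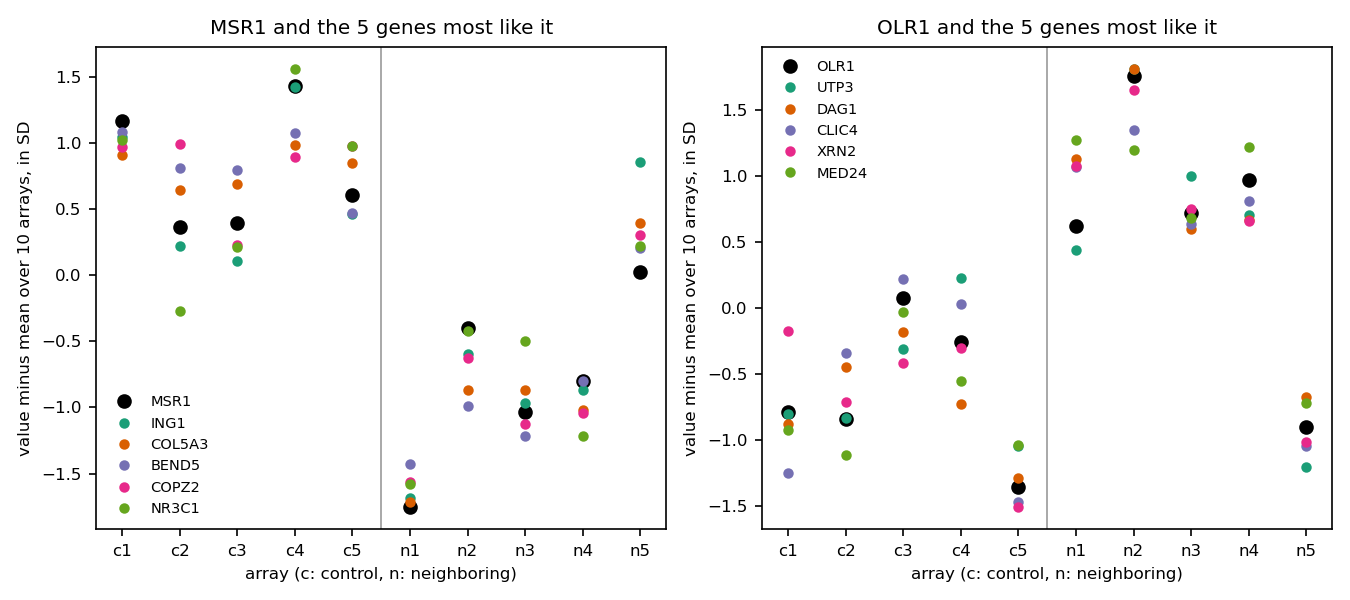
Values of MSR1 and OLR1 and of the 5 probe sets most like each, on the 10 arrays, as z-scores over the 10 arrays. The sets like MSR1 are high on the controls and low on neighboring 1 to 4, with neighboring 5 near or among the controls, and the sets like OLR1 are high on neighboring 1 to 4 and low on neighboring 5 and most controls.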

How the data were processed

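Arrays were Affymetrix GeneChip Bovine Genome Arrays hybridized with biotin-labelled RNA (TRIzol extraction, MessageAmp II kit). The values that the authors deposited are on the log2 scale, 1 per probe set, from RMA (robust multi-array average), which corrects background, quantile-normalizes the arrays and summarizes the probes of a set. Since all arrays are given the same distribution, a shift of most transcripts at once would go unseen, and differences are compressed near both ends of the intensity range. RMA is named in the submitters' processing notes, and its version is not given in the sources used here. Groups and replicate numbers came from the titles, and the cows are separate animals. No arrays held identical values (0 pairs).

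Array controls (112 probe sets) were left out. In the platform annotation 13292 of the rest had a single symbol, 86 had several and 10638 had none here, and 13263 matched a RefSeq symbol through Entrez ID. The fit used limma 3.58.1 in R 4.3.3 (lmFit, eBayes, Benjamini-Hochberg) on 8 arrays, 4 per group, as in the study. In place of its present calls, probe sets in the lowest 40% by mean over the 10 arrays (under 5.71) were dropped, which kept 14409. For gene lists a gene was its brightest kept probe set. Named genes were all members, up to 4 passing genes per list with the largest differences, the 5 genes most like MSR1 and OLR1, and the milk genes CSN2, CSN3 and LALBA. The members and lists were chosen with earlier results of these data known. SE is the moderated standard error from limma, and each adjusted p comes from limma over all kept probe sets. Alternatives covered arrays entered, filter, scaling, variance model, array weights, replicate number as a block, the hybridization controls as a covariate and leaving out each array. Simulated arrays with known changes were used to test the fit. The number of arrays limits the precision.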

Additional observations from a re-analysis of the deposited data

Results flagged for a closer look

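In 58 probe sets named in the text, the farthest array of each group of 5 was compared with the others by its gap to the nearest value over the range of the group. Of 116 groups, 5 had a value beyond Dixon's critical value of 0.71, and chance alone flags about 1 in 20 such groups. For AIF1, control 3 was the lowest control at 7.33, where the next value was 8.40. For COPZ2, among the genes most like MSR1, control 3 was the lowest control at 7.63, where the next was 7.89. For HEXA, control 3 was the highest control at 7.78, where the next was 7.45. For AGER, neighboring 5 was the highest neighboring array at 6.08, where the next was 5.70. For OXTR, neighboring 5 was the highest at 6.42, where the next was 5.43. Each of the 5 values was on control 3 or neighboring 5, the arrays that were left out of the fit.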

How the results depend on the processing

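The 10 arrays limit what could be seen, and single arrays moved calls. On all 10 arrays, with neighboring 5 put back, with the replicate block, with the block on all 10 arrays and with hybridization controls added as a covariate, the 398 probe sets called by the stricter rule became 15, 4, 119, 0 and 27, and the 4283 at an adjusted p under 0.05 became 1806, 1190, 1481, 1161 and 251. Of the 2 members called by the stricter rule 0 stayed under any of these 5. The 1 member higher at 0.05 became 0 on all 10 arrays, with neighboring 5 and with the covariate, and the 4 lower became 2, 1, 1, 1 and 0, and 2 with array weights. In the gene lists the 14 that rose became 5, 5, 6, 5 and 2, and the 31 that fell became 12 with neighboring 5, 19 and 12 with the blocks and 5 with the covariate. The causes were not tested. Leaving out each array gave 326 to 458 strict calls, 2996 to 4250 at 0.05, 2 members called strictly, 1 higher and 3 to 5 lower, 8 to 13 list genes that rose (8 without neighboring 3) and 23 to 32 that fell. MSR1 ranged from −2.10 to −1.64 and from −0.68 to −0.40 for its 2 kept sets. The middle MSR1 set passed 0.05 with median centring and with trended and robust variances, at an adjusted p of 0.0499 and 0.0497. Without control 3 the control means were 8.53, 6.89 and 5.09 for MSR1, 4.70 for OLR1, 13.54 for CD36, 7.96 for SCARB1, 6.99 for CD68, 8.56 for AIF1 and 11.40 for FCGR2B. Of the 5 genes most like MSR1, 2 stayed on the 8 arrays and 1 by deviations from group means, and of those most like OLR1 3 stayed on the 8 arrays. Of 39 named list genes, calls lost ranged from 0 to 32 over the alternatives and 0 changed direction. CD3D, CD52, COL3A1, CTSH, CTSZ, LGALS3, PDGFRA, PLTP, TAGLN, XDH and ZAP70 lost theirs in at least 1 fit without an array. Shared replicate numbers did not pair the cows: deviations of same-numbered arrays correlated between −0.186 and 0.165, and 1 of 5 neighboring arrays correlated best with its own number. The block on the 8 arrays could use numbers 1, 2 and 4 only.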
